A study of Homo sapiens with 4 samples.

Results

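Histone genes were followed in RNA from 2 human pancreatic tumour cell lines. The members are the 91 gene symbols, of 26255 with a deposited value, that begin with HIST1H, HIST2H, HIST3H, HIST4H, H1F, H2AF or H3F. Of these, 73 carry a HIST symbol, called replication-dependent below, and 18 carry an H1F, H2AF or H3F symbol, called variant. The rule rests on the symbols and uses no measured value, though it was set with earlier results of these data known. PSN-1 and MIA PaCa-2, both labelled as epithelial lines, received by transfection either a mimic of miR-4800-3p, a small regulatory RNA, or a scramble oligonucleotide as the control. The aim was to find messenger RNAs that miR-4800-3p targets. The 4 groups were PSN-1 with the mimic, PSN-1 with the scramble, MIA PaCa-2 with the mimic and MIA PaCa-2 with the scramble, with 1 library each. No value has a replicate within its line, each line is 1 cell line, and the labels give no dose or time of transfection.

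Most histone messenger RNA is made during S phase from clustered genes without introns, and it ends in a conserved stem-loop in place of a poly(A) tail. Variant histone genes lie outside the clusters, usually hold introns and give polyadenylated RNA throughout the cell cycle. The library kit captures RNA by its poly(A) tail and so is not made for the stem-loop form, which is the bulk of histone messenger RNA in dividing cells. Some RNA without a tail was present in these libraries all the same, as given below, and which form the HIST fragments came from was not measured. Levels below are FPKM, fragment numbers scaled for transcript length and library total, which allow genes of different length to be set side by side.

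Low values come in steps of whole fragments, from which 1 FPKM was worth an estimated 15.9 fragments per kb of transcript in PSN-1 mimic, 12.6 in PSN-1 scramble, 14.2 in MIA PaCa-2 mimic and 12.7 in MIA PaCa-2 scramble. A 1-kb transcript at 5 FPKM then rests on about 63.2 fragments in the shallowest library, which gives a log2 ratio of 2 libraries a counting error of 0.26 (SE). At 50 FPKM the number is 632 and the error 0.081. Genes above 0 numbered 17294 and 16783 in PSN-1 with mimic and scramble, and 15699 and 15747 in MIA PaCa-2. Of the markers of an epithelial cell, KRT8 and KRT18 were at 495 FPKM or more in every library. KRT19 was at 78.2 and 92.3 FPKM in PSN-1 with mimic and scramble, and at 178 and 131 FPKM in MIA PaCa-2. EPCAM was at 28.4 and 24.1 FPKM in PSN-1 with mimic and scramble, and at 0.139 and 0.104 FPKM in MIA PaCa-2. KRT7 was listed at 0 in MIA PaCa-2, and CDH1 was at 1.51 FPKM or less in all 4 libraries, so EPCAM, KRT7 and CDH1 were low or absent in MIA PaCa-2. CD3E was listed at 0 in all 4 libraries, and CDH5, VWF and DCN were at 0.292 FPKM or less. Several other fibroblast, endothelial and leukocyte markers were higher. In PSN-1 with mimic and scramble, COL3A1 was at 36.1 and 45.6 FPKM, KDR at 6.50 and 5.43 and CD14 at 2.70 and 4.95. COL1A2 was at 59.9 and 76.8 FPKM in MIA PaCa-2, against 0.0120 and 0 in PSN-1, so the fibroblast sums below rest largely on different genes in each line. The 6 fibroblast markers summed to 80.4 and 99.0 FPKM in PSN-1 with mimic and scramble and to 66.99 and 84.7 FPKM in MIA PaCa-2, the 5 leukocyte markers to 5.58 and 8.43 FPKM and to 1.27 and 1.12 FPKM, and the 4 endothelial markers to 7.99 and 7.16 FPKM and to 0 and 0.0273 FPKM. Their part in the results below was not tested. Fewer cells of a type and less RNA per cell cannot be told apart in such bulk samples.

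The miRNA and the stem-loops are shown because the seed defines the sites of the mimic and the stem-loop marks the end of the RNA without a tail. The mature miRNA lies on chromosome 4 (GRCh38.p14, chr4:2250091-2250109, minus strand, from RefSeq), with its seed, bases 2 to 8, in capitals below. The stem-loops were read from GENCODE 29 transcripts as the 16-base histone motif, with the paired arms in capitals.
hsa-miR-4800-3p: cAUCCGUCcgucuguccac
HIST1H2BD stem-loop: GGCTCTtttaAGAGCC
HIST1H2BC stem-loop: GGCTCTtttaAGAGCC
HIST1H4H stem-loop: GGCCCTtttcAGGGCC
HIST3H2A stem-loop: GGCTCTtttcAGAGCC
HIST2H2BC stem-loop: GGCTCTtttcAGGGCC
H2AFX stem-loop: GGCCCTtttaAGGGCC
The seed pairs with the 7-base sites GACGGAT and ACGGATA. Of 86 members with a protein-coding transcript, 1 held such a site anywhere in a transcript (1.16%), against 1491 of 19669 protein-coding genes (7.58%). That member was HIST1H4E, an H4 gene that was listed at 0 in both PSN-1 libraries. The 6440-base noncoding transcript of HIST2H2BC, which RefSeq lists as a pseudogene, also held one. The longest transcripts of the HIST genes have a median of 516 bases, and short transcripts have less room for a site. Length was not matched in this comparison, so the lower share is not read as a lack of sites.

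The stem-loop was present in 33 of the 73 HIST genes, and of other protein-coding genes in 70 of 19583 (0.357%). The annotated transcripts of 24 of the 33 run more than 100 bases past it. HIST1H4H has 1655 bases beyond the stem-loop, HIST1H2AC 1128 and HIST1H2BC 116, while HIST1H2BD has 39. These lengths come only from transcripts that hold the motif, so a transcript without it is not covered. HIST1H2BD has 2 annotated transcripts, of 496 and 789 bases. H2AFX was the only variant gene with the motif, with 1044 bases beyond it, and it encodes the H2A variant that is phosphorylated at DNA breaks. Of the 40 HIST genes with no motif found, 34 have a single annotated transcript of a length divisible by 3, a coding length, so a missing motif says nothing about their real ends.

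The variant genes made up most of the histone signal in each library. Their summed level was 663 FPKM in PSN-1 mimic, 564 in PSN-1 scramble, 437 in MIA PaCa-2 mimic and 484 in MIA PaCa-2 scramble. These variant sums include H3F3A and H3F3AP4, whose shared reads are described below, and so depend in part on how those reads were split. The 73 HIST genes summed to 61.3, 50.9, 74.8 and 106 FPKM in PSN-1 mimic, PSN-1 scramble, MIA PaCa-2 mimic and MIA PaCa-2 scramble. The median gene had a mean over the 4 libraries of 7.01 FPKM among the 18 variants and of 0.273 FPKM among the 73 HIST genes. A mean of at least 1 FPKM was reached by 11 of the 18 variants and 17 of the 73 HIST genes, and 4 variants and 20 HIST genes were listed at 0 in every library.

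H2AFZ, which encodes H2A.Z, the variant found beside transcription start sites, had the highest mean of all members. It was at 110 FPKM in PSN-1 mimic and 133 in PSN-1 scramble, against 86.6 in MIA PaCa-2 mimic and 123 in MIA PaCa-2 scramble. H2AFY, which encodes macroH2A1, a variant with a large extra domain that marks silent chromatin, was at 79.2 and 77.6 FPKM in PSN-1 and at 87.5 and 96.0 FPKM in MIA PaCa-2, mimic first. H2AFZ overlapped between the lines, and H2AFY was lower in both PSN-1 libraries. H2AFY2, the macroH2A2 gene, was far lower, at 7.76 and 9.99 FPKM in PSN-1 and 7.68 and 8.71 FPKM in MIA PaCa-2. H3F3B, 1 of the genes for the replacement histone H3.3, was at 63.2 and 59.4 FPKM in PSN-1 and 62.0 and 70.6 FPKM in MIA PaCa-2, an even level in all 4 libraries.

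**Figure D1:**
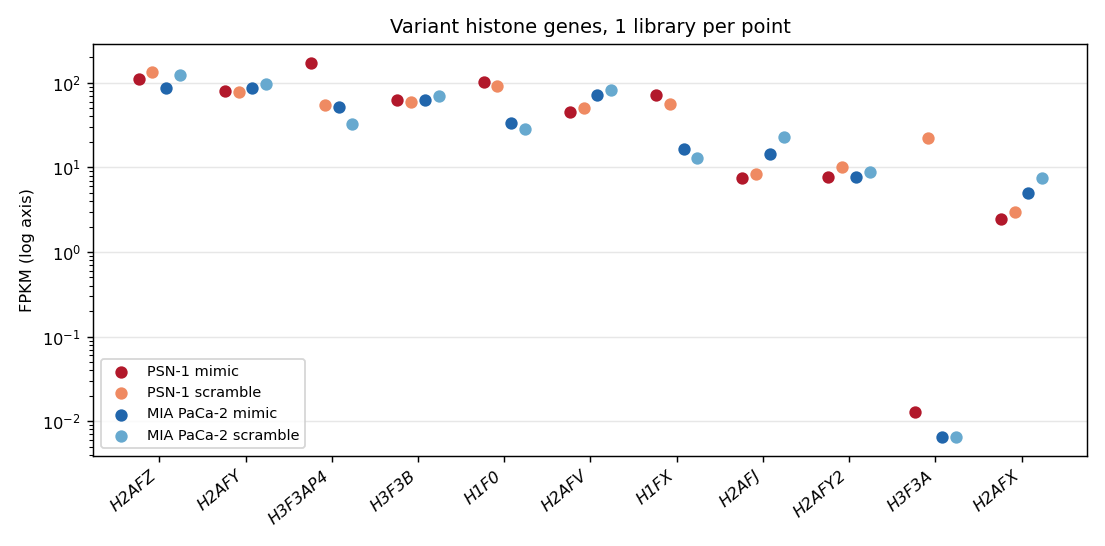
FPKM on a log axis of the 11 variant histone genes that averaged 1 FPKM or more, with 1 point for each library, ordered by their mean. The PSN-1 points of H1F0 and H1FX lie above the MIA PaCa-2 points, those of H2AFJ, H2AFV and H2AFX lie below, and H3F3A is near 0 in all libraries but PSN-1 scramble.

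H3F3A, another H3.3 gene, and H3F3AP4 share reads and are given together. H3F3A was listed at 0.0127 FPKM in PSN-1 mimic and 22.0 in PSN-1 scramble, against 0.00660 and 0.00654 in MIA PaCa-2. H3F3AP4, a processed copy on chromosome 2, was at 173 and 54.1 FPKM in PSN-1 with mimic and scramble, and at 51.5 and 32.4 FPKM in MIA PaCa-2. All 50-base windows of its 411-base model also occur in H3F3A transcripts, so fragments can be given to either gene, and neither value stands on its own. The sum of both genes was 173 FPKM in PSN-1 mimic and 76.0 in PSN-1 scramble, a ratio of 2.27. In MIA PaCa-2 it was 51.5 with the mimic and 32.4 with the scramble, a ratio of 1.59. FPKM is scaled for length, and the annotated H3F3A transcripts have 799 to 1863 bases. A fragment therefore adds more FPKM on H3F3AP4, so these sums and ratios also depend on the split and are not read as a change. 7 variants averaged under 1 FPKM. H1FNT was above 0 in PSN-1 mimic alone (0.399 FPKM), H3F3C did not pass 0.0924 FPKM, the antisense gene H1FX-AS1 did not pass 0.494 FPKM, and H1FOO and the 3 H2AFB genes were listed at 0 throughout.

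Among the HIST genes, H2B genes held most of the level. Their 20 genes summed to 49.2 FPKM in PSN-1 mimic, 36.9 in PSN-1 scramble, 45.4 in MIA PaCa-2 mimic and 56.7 in MIA PaCa-2 scramble. The 3 genes with the highest means held 51.2% of the HIST sum over the libraries, and all 3 carry H2B symbols. They include HIST2H2BC, which RefSeq lists as a pseudogene and which is counted in the H2B and HIST sums. HIST1H2BK, on chromosome 6, was at 16.3 and 16.2 FPKM in PSN-1 with mimic and scramble, and at 18.3 and 21.6 FPKM in MIA PaCa-2. Of its 50-base windows, 74.1% also occur in other genes, most of them in H2BFS, so part of that level may belong to a copy. HIST2H2BC, on chromosome 1, was at 14.8 and 11.2 FPKM in PSN-1 and at 6.65 and 10.5 FPKM in MIA PaCa-2.

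HIST1H2BD was at 11.3 FPKM in PSN-1 mimic and 6.61 in PSN-1 scramble, and at 9.37 in MIA PaCa-2 mimic and 6.78 in MIA PaCa-2 scramble. Both mimic libraries lay above both scramble libraries. HIST1H1C, a linker histone gene, followed at 3.43 and 4.02 FPKM in PSN-1 and 1.59 and 3.11 FPKM in MIA PaCa-2. HIST3H2A, an H2A gene of the small cluster on chromosome 1, was at 1.28 and 1.61 FPKM in PSN-1 and 3.82 and 4.54 FPKM in MIA PaCa-2. Below these, values rest on few fragments. Of 43 HIST genes above 0 in 2 or more libraries, 32 had values that were whole multiples, within 2% of a step, of a smallest step of 0.135 to 1.51 FPKM (median 0.309), where a step is 1 fragment or a small whole number of them. In steps, HIST1H2BC was at 11 in PSN-1 mimic and 2 in PSN-1 scramble, against 5 and 4 in MIA PaCa-2.

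**Figure D2:**
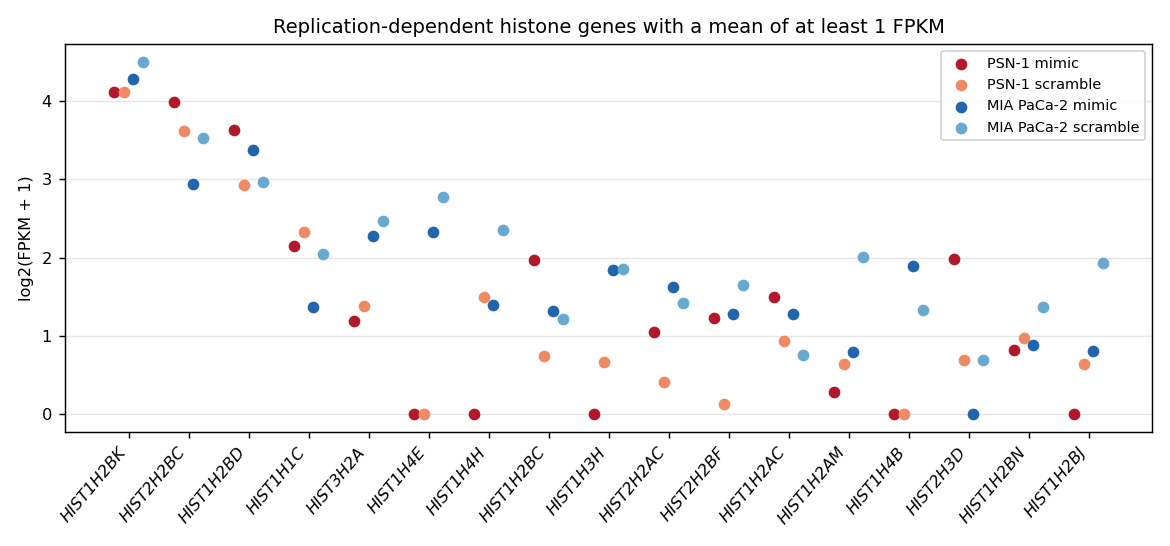
log2(FPKM + 1) of the 17 HIST genes that averaged 1 FPKM or more, with 1 point for each library, ordered by their mean. HIST1H2BK, HIST2H2BC and HIST1H2BD stand above the others in all 4 libraries, and HIST1H4E and HIST1H4B are at 0 in both PSN-1 libraries.

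The number of HIST genes seen differed by line. Of 73 genes, 19 were above 0 in PSN-1 mimic and 27 in PSN-1 scramble, against 38 in MIA PaCa-2 mimic and 49 in MIA PaCa-2 scramble. Above 0 in both lines were 27 genes, in PSN-1 alone 3, in MIA PaCa-2 alone 23, and in neither 20. Over all genes the order was the other way, since PSN-1 had more genes above 0 than MIA PaCa-2. The 15 H4 genes had the largest ratio of summed levels between the lines. Of them, 1 and 2 were above 0 in PSN-1 with mimic and scramble, against 5 and 10 in MIA PaCa-2, and their sum was 0.410 and 2.30 FPKM in PSN-1 against 10.1 and 20.3 FPKM in MIA PaCa-2. For the 18 H2A genes the sums were 5.08 and 5.54 FPKM in PSN-1 against 12.7 and 16.3 FPKM in MIA PaCa-2. H3 genes summed to 3.19 and 1.77 FPKM in PSN-1 against 4.33 and 8.78 FPKM in MIA PaCa-2, and the 6 H1 genes to 3.43 and 4.43 FPKM against 2.19 and 3.78 FPKM, overlapping between the lines. The genes listed at 0 include HIST2H2AA3, HIST2H2AA4, HIST2H4A, HIST2H4B, HIST2H3A and HIST2H3C, duplicates whose windows are 97.1 to 100% shared with another gene, and the part of shared fragments in their zeros was not tested. Of 52 HIST genes with under 10% of shared windows, 14 were also at 0 in every library.

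**Figure D3:**
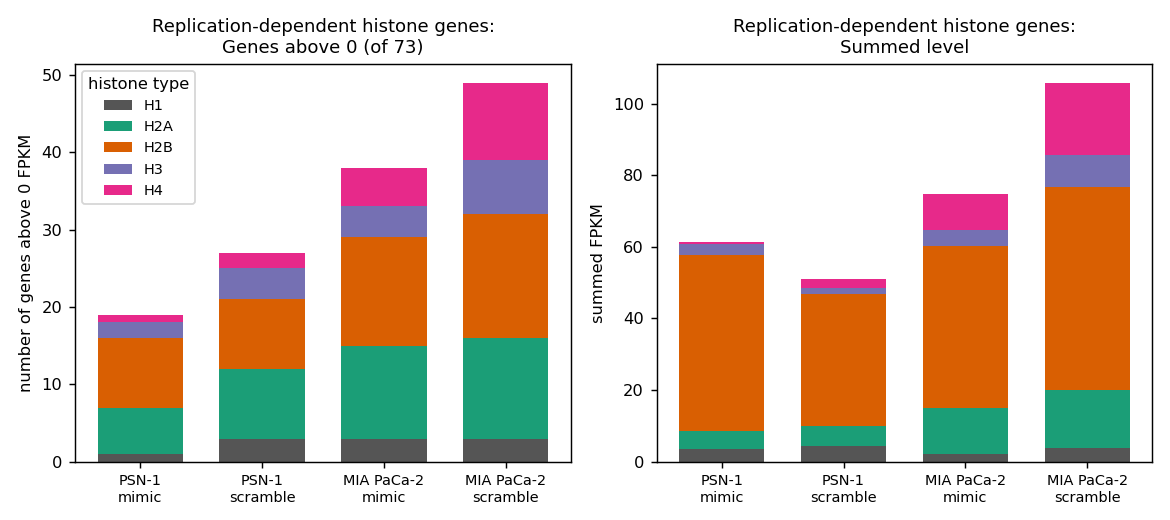
Stacked bars by histone type of the number of HIST genes above 0 FPKM (left) and their summed FPKM (right) in each of the 4 libraries. Genes above 0 numbered 19 and 27 in PSN-1 and 38 and 49 in MIA PaCa-2, H2B makes up most of each sum, and H4 summed to 0.410 and 2.30 FPKM in PSN-1 and 10.1 and 20.3 FPKM in MIA PaCa-2.

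To test the difference between the lines, limma was fitted to log2(FPKM + 1) of all 12423 genes that averaged 1 FPKM or more, with terms for line and oligonucleotide, which leaves 1 residual degree of freedom. At a Benjamini-Hochberg adjusted p under 0.05 in limma, 3 of the 28 members in the fit were higher in PSN-1 and 11 lower, against a background of 29.2% of all genes higher and 27.3% lower. The p-values measure the spread between 4 single libraries only. Of the 11 variants 3 were higher and 3 lower (median difference 0.097), and of the 17 HIST genes 0 were higher (1 at an unadjusted p under 0.05) and 8 lower (median -0.79), beside a median of 0.015 over all genes. Of those 8 HIST genes, 7 averaged under 1 FPKM in PSN-1 and so entered the fit through their MIA PaCa-2 level, so that the filter largely set their direction.

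The linker histone variants set PSN-1 apart. H1FX, on chromosome 3, encodes the linker histone H1.10 (also H1x), and H1F0, on chromosome 22, encodes H1.0, the linker histone that gathers in cells that stop dividing or differentiate. H1FX was at 72.0 FPKM in PSN-1 mimic and 56.4 in PSN-1 scramble, against 16.5 in MIA PaCa-2 mimic and 13.0 in MIA PaCa-2 scramble. Its mean in PSN-1 was 4.35 times that in MIA PaCa-2, and the log2 difference was 2.05 ± 0.12 (SE, adjusted p = 0.000273 in limma). H1F0 was at 102 and 90.6 FPKM in PSN-1, against 33.1 and 28.8 FPKM in MIA PaCa-2, a ratio of means of 3.12 (log2 difference 1.61 ± 0.11, adjusted p = 0.000398 in limma). The lines did not overlap for either gene, and no 50-base window of either gene occurs in another gene. H1FX has the antisense neighbour H1FX-AS1, and the strand setting of the counting is not given, but that gene was at 0.283, 0.0397, 0.494 and 0.158 FPKM in PSN-1 mimic, PSN-1 scramble, MIA PaCa-2 mimic and MIA PaCa-2 scramble. The third member called higher was H3F3AP4 (log2 difference 1.22 ± 0.25, adjusted p = 0.0108 in limma), which shares its reads with H3F3A as described.

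Of the H2A variants, 3 were lower in PSN-1. H2AFV, which encodes a second H2A.Z protein, was at 45.1 and 50.1 FPKM in PSN-1, against 72.4 and 81.3 FPKM in MIA PaCa-2 (log2 difference -0.68 ± 0.11, adjusted p = 0.00498 in limma). H2AFJ, an H2A variant gene of mammals on chromosome 12, was at 7.51 and 8.42 FPKM in PSN-1, against 14.2 and 22.6 FPKM in MIA PaCa-2 (-1.08 ± 0.18, adjusted p = 0.00546 in limma). H2AFX was at 2.43 and 3.01 FPKM in PSN-1, against 5.0 and 7.40 FPKM in MIA PaCa-2 (-0.94 ± 0.17, adjusted p = 0.00832 in limma). All 3 genes had lower values in both PSN-1 libraries than in either MIA PaCa-2 library. H2AFZ (0.23, adjusted p = 0.136 in limma), H2AFY (-0.22, 0.134), H2AFY2 (0.097, 0.611) and H3F3B (-0.11, 0.481) did not pass the threshold.

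Of the HIST genes, HIST1H4E, an H4 gene, was listed at 0 in both PSN-1 libraries and was at 4.01 and 5.83 FPKM in MIA PaCa-2 with mimic and scramble (log2 difference -2.55 ± 0.22, adjusted p = 0.000748 in limma). HIST1H4B was likewise at 0 in PSN-1 and at 2.71 and 1.51 FPKM in MIA PaCa-2, values that stand for 2 steps and 1 step (adjusted p = 0.00413 in limma). HIST1H3H, an H3 gene, was at 0 and 0.583 FPKM in PSN-1, against 2.59 and 2.61 FPKM in MIA PaCa-2 (-1.52 ± 0.25, adjusted p = 0.0053 in limma). HIST3H2A, with the highest PSN-1 level of the 8, had a log2 difference of -1.08 ± 0.18 (adjusted p = 0.00546 in limma). HIST1H4H (-1.12, adjusted p = 0.0108), HIST1H2BJ (-1.05, 0.0144), HIST2H2AC (-0.79, 0.0294) and HIST1H2AM (-0.94, 0.0367) were the other lower calls in limma. PSN-1 scramble (1.83 FPKM) lay above MIA PaCa-2 mimic (1.63 FPKM) for HIST1H4H. HIST1H4H, HIST1H2BJ, HIST2H2AC, HIST1H2AM and H3F3AP4 were not called when line was the only term in the fit (adjusted p from 0.0527 to 0.164 in limma). HIST1H2BK (-0.27, adjusted p = 0.157 in limma), HIST2H2BC (0.57, 0.118), HIST1H2BD (0.11, 0.587) and HIST1H1C (0.53, 0.0777), the 4 HIST genes with the highest means, did not pass it.

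**Figure D4:**
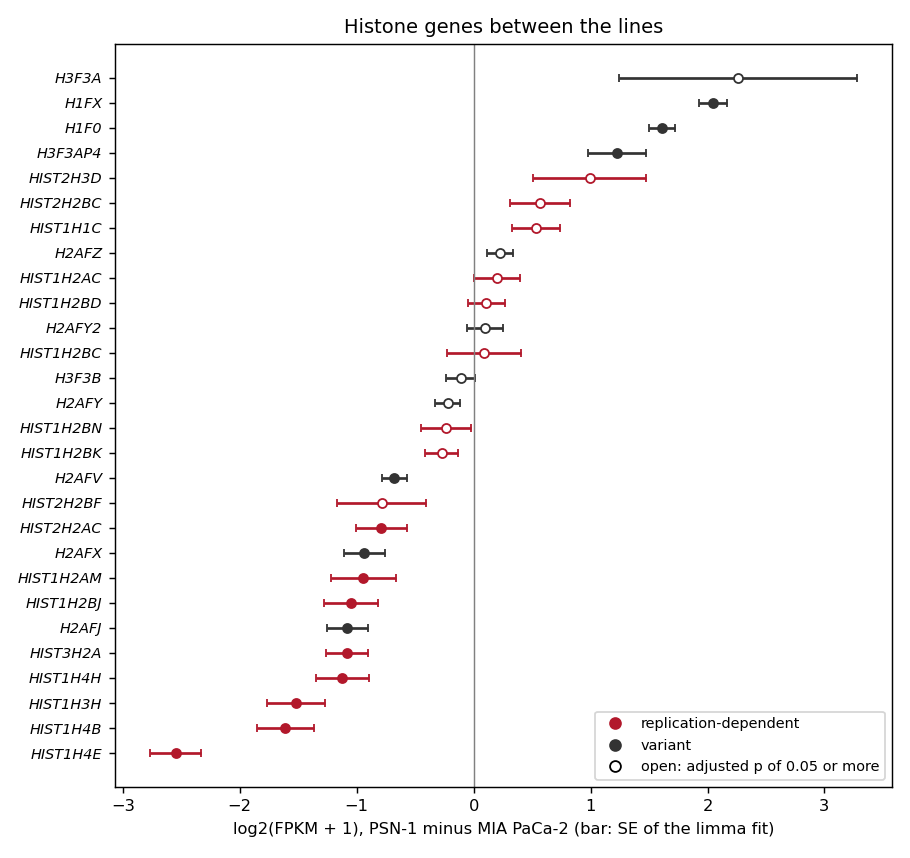
Difference in log2(FPKM + 1), PSN-1 minus MIA PaCa-2, of the 28 members in the limma fit, with bars of 1 SE; filled points had an adjusted p under 0.05, and red points are HIST genes. H1FX and H1F0 lie at 2.05 and 1.61 on the right, and the 8 filled HIST points all lie left of 0.

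The summed level of RNA species that carry no poly(A) tail also differed between the lines, though not each of the genes did. Of a list of 22 such genes, 10 are in the files, and they summed to 25.4 FPKM in PSN-1 mimic and 40.7 in PSN-1 scramble, against 115 in MIA PaCa-2 mimic and 136 in MIA PaCa-2 scramble. Of the 8 in the fit, 5 were called lower in PSN-1 in limma and 0 higher (0 at an unadjusted p under 0.05), but only 3 of the list averaged 1 FPKM or more in PSN-1. RNU11, RNU6ATAC and VTRNA1-1 were at 0 in both PSN-1 libraries and entered the fit through MIA PaCa-2, so the filter set their direction and nothing is read from the count. VTRNA1-1 was at 29.3 FPKM in MIA PaCa-2 mimic and at 0 in MIA PaCa-2 scramble. RMRP, the RNA of an RNA-processing enzyme, was at 10.9 and 19.1 FPKM in PSN-1, against 33.0 and 40.1 FPKM in MIA PaCa-2 (-1.27, adjusted p = 0.00267 in limma). RNU12 was at 5.84 and 0 FPKM in PSN-1, against 26.2 and 29.3 FPKM in MIA PaCa-2 (-3.46, adjusted p = 0.00933 in limma). RPPH1 overlapped between the lines, at 8.04 and 19.7 FPKM in PSN-1 and 12.5 and 14.6 FPKM in MIA PaCa-2 (-0.085, adjusted p = 0.796 in limma). The part of RNA without a tail in the HIST difference between the lines was not tested.

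The mimic gave no called change in any member. In limma's fit of both lines 0 of 28 members were higher and 0 lower at an adjusted p under 0.05, and 4 and 4 at an unadjusted p under 0.05. The background was 6 of 12423 genes higher (0.0483%) and 1 lower (0.00805%), so this fit called almost nothing in any gene. The median mimic effect was -0.11 over the 17 HIST genes and -0.16 over the 11 variants, beside 0.0025 over all genes. The largest sizes were H3F3A (-2.25, adjusted p = 0.626 in limma, with reads shared), HIST1H4H (-1.23, adjusted p = 0.334 in limma), H3F3AP4 (1.16, 0.367) and HIST1H2BJ (-0.88, 0.459). H1FX had 1.28 times the scramble level with the mimic in both PSN-1 and MIA PaCa-2 (log2 effect 0.34, adjusted p = 0.568 in limma), and H1F0 had 1.13 and 1.15 times (0.19, 0.703). H2AFZ was lower with the mimic in both lines (-0.38, adjusted p = 0.496 in limma), as were H2AFJ, H2AFV, H2AFX and H2AFY2.

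Within PSN-1, each change is the log2 ratio of 2 single libraries, mimic over scramble, after 1 was added to each FPKM, and there is no test. Of the 73 HIST genes 8 averaged at least 1 FPKM there, and 2 of these were higher past 2-fold and 0 lower. Among all 12233 genes measured in PSN-1, 0.85% were higher and 0.777% lower past 2-fold, and among those of 1 to 5 FPKM 1.5% and 1.13%. Both HIST genes were under 1 FPKM with the scramble and passed the filter through the mimic library, so the count is no evidence on its own. The 2 genes were HIST2H3D, an H3 gene of the chromosome 1 cluster, at 2.95 FPKM in the mimic library and 0.619 in the scramble library (1.29), and HIST1H2BC, an H2B gene, at 2.92 and 0.669 FPKM (1.23). In steps these are 6 against 1 and 11 against 2, and 80.4% of the windows of HIST2H3D also occur in another gene. The summed HIST level was 1.20 times as high with the mimic, while fewer HIST genes were above 0. In PSN-1, 3 HIST genes were above 0 with the mimic alone and 11 with the scramble alone, and over all genes these numbers were 1163 and 652. Of the variants, H3F3AP4 (1.66) was past 2-fold higher and H3F3A (-4.50) past 2-fold lower, the pair of genes that share reads.

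Within MIA PaCa-2, the HIST genes were lower with the mimic more often than higher, in values that rest on few fragments. Of the 24 measured there, 17 were below 0 and 6 were lower past 2-fold, with 0 higher (median -0.40). All 6 were under 1 FPKM with the mimic and passed the filter through the scramble library, and 0 were past 2-fold with a pseudocount of 5 or a mean of at least 5 FPKM, so the count is no evidence on its own. All 11484 genes measured in MIA PaCa-2 had 1.31% higher and 0.81% lower past 2-fold, and 47.8% below 0 (median 0.014). Among genes of 1 to 5 FPKM, where most of the 24 measured HIST genes lie, 1.08% were higher and 1.46% lower past 2-fold. HIST1H4I, an H4 gene, was at 0 FPKM in the mimic library and 2.80 in the scramble library (-1.93), and HIST1H4A, another H4 gene, at 0 and 2.77 FPKM (-1.91). HIST1H3C, an H3 gene, was at 0.273 and 2.14 FPKM (-1.30), and HIST1H2AM, an H2A gene, at 0.739 and 3.03 FPKM (-1.21). Most windows of HIST1H2AM are shared with HIST1H3J, as given above. HIST1H2BJ, an H2B gene, was at 0.755 and 2.82 FPKM (-1.12), and HIST1H2AG, an H2A gene, at 0.475 and 2.12 FPKM (-1.08).

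In whole steps, those MIA PaCa-2 values are small numbers. HIST1H4I had 0 steps with the mimic and 6 with the scramble, HIST1H3C 1 and 7, HIST1H2AM 3 and 11, HIST1H2BJ 3 and 10, and HIST1H2AG 1 and 4. Over the 32 genes with steps, the libraries held 45 and 33 steps in PSN-1 with mimic and scramble, and 71 and 110 in MIA PaCa-2. The HIST sum with the mimic was 0.707 times that with the scramble in MIA PaCa-2 (log2 -0.50), and the detected genes numbered 38 and 49. There 1 HIST gene was above 0 with the mimic alone and 12 with the scramble alone, against 802 and 850 over all genes. The best covered HIST genes varied less, with HIST1H2BK at -0.23 and HIST1H2BD at 0.41. Of the 10 variants measured in MIA PaCa-2, 0 passed 2-fold and 7 were below 0 (median -0.16).

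Across both lines, 17 members were measured in each, of which 6 were higher with the mimic in both lines, 7 lower in both and 4 opposite. Over all 10678 genes measured in both lines the numbers were 3004, 2952 and 4722. The 3 HIST genes higher in both were HIST1H2AC, HIST1H2BC and HIST1H2BD, which lie on chromosome 6. HIST1H2AC, an H2A gene, was at 1.82 and 0.918 FPKM in PSN-1 with mimic and scramble, and at 1.43 and 0.685 FPKM in MIA PaCa-2, or 10, 4, 7 and 3 steps. Neither HIST1H2AC (0.54, adjusted p = 0.570), HIST1H2BC (0.66, 0.638) nor HIST1H2BD (0.56, 0.496) was called in limma. HIST1H1C and HIST3H2A were lower in both lines, and HIST1H2BK and HIST2H2BC were higher with the mimic in PSN-1 and lower in MIA PaCa-2.

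**Figure D5:**
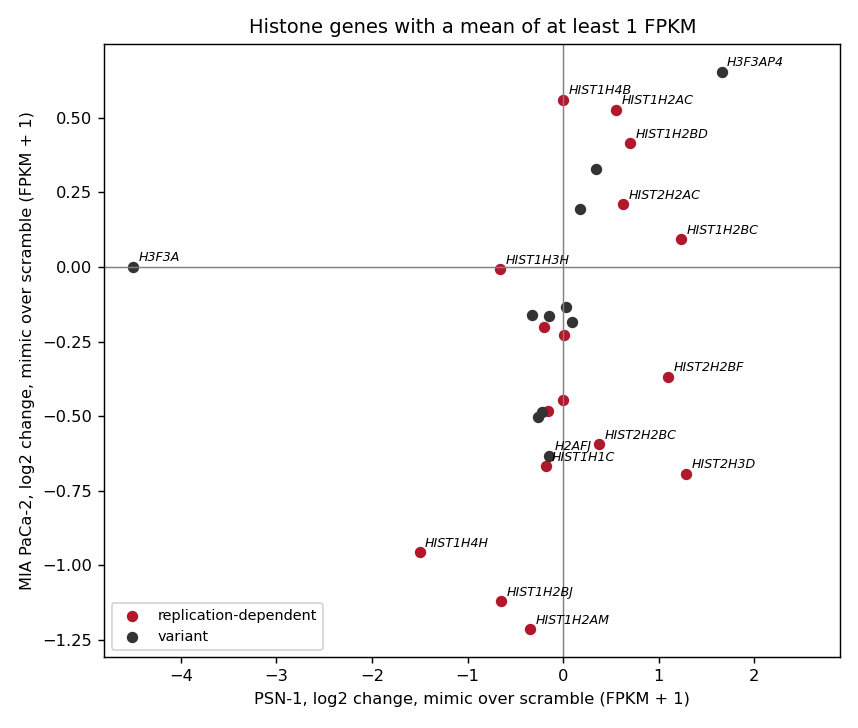
Log2 change with the mimic over the scramble in PSN-1 (x axis) and MIA PaCa-2 (y axis), on FPKM + 1, of the 28 members that averaged 1 FPKM or more over the 4 libraries, with HIST genes in red and variants in dark grey. H3F3A stands alone at the left at -4.50, HIST1H2BJ and HIST1H4H lie low in both lines, and HIST2H3D is at 1.29 in PSN-1 and -0.69 in MIA PaCa-2.

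The starts of these genes differ in sequence by class. RefSeq windows of 300 bases, 250 before and 50 after the gene start (GRCh38.p14), were matched for 60 of the 73 HIST genes and 14 of the 18 variants, and both strands were searched. CCAAT, the box bound by NF-Y, was present in 83.3% of the HIST windows and 78.6% of the variant windows, against 34.6% of 35116 windows in all. TATAAA was present in 66.7% of HIST and 28.6% of variant windows, against 11.5% in all. The octamer ATTTGCAT, known from H2B promoters as the site of OCT1, was present in 35.0% of HIST and 7.14% of variant windows, against 1.77% in all. It was in 9 of 13 H2B windows (69.2%) and in 12 of the 47 other HIST windows (25.5%). Those 12 belong to H2A genes, apart from HIST1H3D, whose window is the same as that of HIST1H2AD. Windows of paired H2A and H2B genes overlap, as given below, so a single site can count for both genes. TTTNGCGC, an E2F-like motif, was present in 20.0% of HIST and 0 of 14 variant windows, against 1.79% in all. HIST1H2BK has the highest HIST level, HIST1H2AC is an H2A gene that was above 0 in all 4 libraries, and H1FX is the member with the largest called difference in favour of PSN-1, so their windows are given with all matches to these motifs in capitals, some of them overlapping.
HIST1H2BK, chr6:27146809-27147108, minus strand: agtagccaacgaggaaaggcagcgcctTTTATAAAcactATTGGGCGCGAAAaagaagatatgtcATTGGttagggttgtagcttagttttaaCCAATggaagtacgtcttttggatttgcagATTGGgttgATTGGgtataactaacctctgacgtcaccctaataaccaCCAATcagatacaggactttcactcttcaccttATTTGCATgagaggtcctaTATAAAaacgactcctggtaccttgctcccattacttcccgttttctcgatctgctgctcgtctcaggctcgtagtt
HIST1H2AC, chr6:26123922-26124221, plus strand: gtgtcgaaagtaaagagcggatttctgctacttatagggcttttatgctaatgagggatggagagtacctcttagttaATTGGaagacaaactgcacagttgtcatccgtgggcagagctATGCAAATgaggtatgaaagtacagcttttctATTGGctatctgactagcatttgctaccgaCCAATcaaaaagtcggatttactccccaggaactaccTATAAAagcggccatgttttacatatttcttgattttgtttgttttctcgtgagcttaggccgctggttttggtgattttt
H1FX, chr3:129316237-129316536, minus strand: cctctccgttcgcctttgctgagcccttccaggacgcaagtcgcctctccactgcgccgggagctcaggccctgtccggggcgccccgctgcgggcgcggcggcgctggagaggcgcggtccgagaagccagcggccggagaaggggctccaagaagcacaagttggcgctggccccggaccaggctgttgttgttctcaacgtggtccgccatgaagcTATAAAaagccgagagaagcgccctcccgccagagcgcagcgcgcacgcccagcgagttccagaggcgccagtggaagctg
The HIST1H2BK and HIST1H2AC windows hold CCAAT, TATA and octamer matches, while the H1FX window has a TATA match alone. These are matches of letters, and binding of a factor was not measured.

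Several HIST genes share such a window with a neighbour on the opposite strand. Among the matched genes 8 pairs of an H2A and an H2B gene have start windows that overlap by 253 to 293 bases. HIST1H2AG (-1.08) and HIST1H2BJ (-1.12) form 1 of these pairs, with 1 and 4 steps in MIA PaCa-2 mimic and scramble for HIST1H2AG and 3 and 10 for HIST1H2BJ. HIST1H2AM (-1.21 in MIA PaCa-2) and HIST1H2BO (-0.58) form another, with 3 and 11 steps and 1 and 3 steps. HIST2H2AC and HIST2H2BE had changes of 0.63 and 0.074 in PSN-1 and 0.21 and 0.15 in MIA PaCa-2. Other pairs gave less to compare. HIST1H2BL, HIST1H2AJ, HIST1H2AK and HIST3H2BB each had the same number of steps, 1, 2, 3 and 1, in both MIA PaCa-2 libraries, and HIST1H2AA and HIST1H2BA were listed at 0.

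Genes that transcribe, process or package histones had no mimic call in limma. Of 24 genes of histone gene transcription and histone messenger RNA processing or decay, 13 were above and 11 below 0 with the mimic in PSN-1 (median 0.025), and 10 and 14 in MIA PaCa-2 (median -0.11). NPAT, the activator of histone gene clusters, was at 10.9 and 10.1 FPKM in PSN-1 and 9.67 and 11.2 FPKM in MIA PaCa-2. SLBP, which binds the stem-loop, was at 32.4 and 34.2 FPKM in PSN-1 and 32.0 and 28.1 FPKM in MIA PaCa-2, and CASP8AP2, a partner of NPAT, at 8.70 and 8.84 against 10.4 and 11.9 FPKM. All 3 genes kept a narrow range over the 4 libraries, and none was called in limma for line or mimic. Between the lines, 4 of the 24 were higher and 5 lower in PSN-1 in limma, against a background of 29.2% and 27.3% of all genes. Lower were, among others, LSM10, a subunit of the U7 particle that cuts histone RNA (-0.86, adjusted p = 0.022 in limma), and MIF4GD, a partner of SLBP in translation (-1.11, adjusted p = 0.00157 in limma). ZNF473 was among the higher ones (0.86, adjusted p = 0.00725 in limma).

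Of 33 histone chaperone and deposition genes, 14 were above and 19 below 0 with the mimic in PSN-1 (median -0.036) and 7 and 26 in MIA PaCa-2 (median -0.18). Of 24 S phase and DNA synthesis genes, 2 were above and 22 below 0 in PSN-1 (median -0.20), and 1 and 23 in MIA PaCa-2 (median -0.40). Over all genes measured, 52.4% were below 0 in PSN-1 and 47.8% in MIA PaCa-2. RRM1, a ribonucleotide reductase subunit, was at 22.7 and 35.0 FPKM in PSN-1 and 18.1 and 38.8 FPKM in MIA PaCa-2, and was past 1.5-fold lower in both. SCARNA10, an RNA of Cajal bodies without a poly(A) tail, was the other gene of these lists past 1.5-fold in the same direction in both lines, at 0 in both mimic libraries against 0.609 and 1.82 FPKM with the scramble in PSN-1 and MIA PaCa-2. SCARNA7, of the same kind, passed 1.5-fold in opposite directions (-0.69 in PSN-1 and 0.94 in MIA PaCa-2). The part of the S phase genes in the lower HIST values of MIA PaCa-2 was not tested. Between the lines, 12 of the 24 S phase genes were lower and 4 higher in PSN-1 in limma, and of the chaperone genes 14 were lower and 4 higher. The background over all genes was 27.3% lower and 29.2% higher.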

How the data were processed

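Polyadenylated RNA was sequenced in 4 libraries, 1 for each line and oligonucleotide. Per the labels' protocols, a miRNeasy Micro kit gave the RNA and a stranded TruSeq mRNA kit the libraries. The authors deposited FPKM values for each gene symbol. TopHat2 2.1.1, Cuffdiff 2.2.1 and the build hg19 are named in the submitters' processing notes, with no role for each. Neither annotation nor strand setting is given in the sources used here.

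The members and lists were chosen with earlier results of these data known. Limma 3.58.1 under R 4.3.3, with a mean-variance trend, was fitted to log2(FPKM + 1) of all genes averaging 1 FPKM or more, with terms for line and oligonucleotide, two-sided, and Benjamini-Hochberg adjustment over all genes. It was tested on simulated data. In the mimic comparison the libraries were paired by line, which the labels give; replicate numbers are not among the labels. Within a line, changes were counted past 2-fold with no test. A fold change on this scale understates the change of low genes. Intervals from depth cover counting error only and assume fragments of 200 bases.

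Named genes were the variants with a mean of at least 1 FPKM, the 10 highest HIST genes, members past 2-fold or called, listed genes past 1.5-fold in both lines, and NPAT, SLBP and CASP8AP2. Other members were named after their values were seen. Transcripts came from GENCODE 29 and promoters and miRNAs from RefSeq, both on GRCh38, joined by symbol. Alternatives changed the pseudocount, filter, scaling, copies, trend and model terms, and left out libraries. Python 3.11.15 with numpy 2.4.6, pandas 2.3.3 and matplotlib 3.10.9 was used.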

Additional observations from a re-analysis of the deposited data

Results flagged for a closer look

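HIST2H3D moved in opposite directions in the 2 lines, with a log2 change with the mimic over the scramble of 1.29 in PSN-1 and -0.69 in MIA PaCa-2. The summed FPKM of the 73 HIST genes did the same, at 0.27 in PSN-1 and -0.50 in MIA PaCa-2 on the log2 scale. With 1 library for each line and oligonucleotide, neither difference between the lines was tested.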

How the results depend on the processing

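The 4 libraries allow no replicate check within a line, and the values of most HIST genes rest on few fragments. Members called higher in PSN-1 numbered 3, and 5 with no filter. Members called lower numbered 11, and 24 with no filter, 2 with a mean of at least 5 FPKM and 7 with line as the only term. Leaving out each library in turn, a fit with line as the only term in which the lone library is assumed to vary like the other line, gave 2 to 3 higher and 4 to 9 lower. In those fits the difference changed sign for H2AFY2 (-0.067), H2AFZ (-0.026), HIST1H2AC (-0.077 and -0.063), HIST1H2BC (-0.53) and HIST1H2BD (-0.24 and -0.098), none of which was called. For the mimic, limma called 0 members higher and 0 lower in every setting, also without the line as replicate block, where 0 genes were called in all (at an unadjusted p under 0.05, 23 higher and 21 lower). Leaving out a library leaves no residual degree of freedom for that fit, which was not run. The mimic effect of HIST2H3D was -0.38 with a pseudocount of 0.1, against 0.30.

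Members lower past 2-fold in MIA PaCa-2 numbered 6, and 0 with a pseudocount of 5 or a mean of at least 5 FPKM. Those higher numbered 0, and 1 with no filter or with TPM scaling. In PSN-1 those higher numbered 3, and 1 with a pseudocount of 5 or a mean of at least 5 FPKM, and those lower 1, and 2 with no filter or TPM scaling and 0 with copies summed. The HIST median in PSN-1 was 0.46, and -0.17 with no filter. The variant median in PSN-1 was -0.15, against -0.10 with a pseudocount of 5, 0.0017 with no filter and -0.059 with a mean of at least 5 FPKM or copies summed. In MIA PaCa-2 it was -0.16, against -0.14, -0.13 with no filter and -0.21 with TPM scaling. The causes were not tested. Of the summary values, 92 stayed the same and 24 moved. A count was taken as the same within 1.5 times, and a median or log2 ratio of sums within 1 SD of the 2 lines' values. Of the single values, 580 kept their direction and side of the threshold, and 33 lost a call, in part in fits with a library left out. Another 2 became called, 8 changed sign and 8 fell under 2-fold.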
